A study of Homo sapiens with 10 samples.

Results

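The 8 genes described here encode the proteins that hold back the cyclin-dependent kinases (CDKs) of the cell cycle, taken by their gene symbols. They are CDKN1A, CDKN1B and CDKN1C of the CIP/KIP family, CDKN2A, CDKN2B, CDKN2C and CDKN2D of the INK4 family, and CDKN3, which belongs to neither. All 8 were present among the 78932 gene identifiers of the count table, and 7 had enough reads to be tested (all but CDKN2A). RNA came from cardiomyocytes differentiated from H1, an established line of human embryonic stem cells. Beating cells were given 50 nM of a GapmeR on day 9 of differentiation and collected 48 hours later. A GapmeR is an antisense oligonucleotide that directs RNase H to cut the RNA it pairs with. There were 5 libraries with a control GapmeR, which the labels call WT, and 5 with a GapmeR against the RNA called CLIPPER. All 10 libraries share the line, the day, the dose and the transfection reagent, and no group was left untransfected. The targeted RNA was not analysed here, as no symbol in the annotation reads CLIPPER, and the labels were not checked against its level. The labels name no separate cultures or differentiations, so the spread between libraries may be technical.

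Cell division is driven by kinases that are active only when bound to a cyclin. INK4 proteins bind CDK4 and CDK6 and keep the D-type cyclins off them, whereas CIP/KIP proteins bind complexes of cyclin and CDK, above all those of CDK2. CDKN3 is a phosphatase that removes the activating phosphate from CDK2 and CDK1, and its RNA is made in dividing cells. Heart muscle cells leave the cell cycle around birth, and CIP/KIP genes are known for their part in that exit.

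Letters of the promoters are given for 5 of the genes. CDKN1A is shown because it fell and lies beside an antisense RNA that rose, CDKN2D and CDKN2B because they rose, and CDKN1B and CDKN3 because they did not pass the test. Each line holds the 250 bases before the RefSeq start (build GRCh38.p14), 5′ to 3′ on the strand of the gene. Capitals mark matches on either strand to the GC box (GGGCGG), the CCAAT box (CCAAT) and the CHR element (TTTGAA), a letter pattern known from genes of mitosis.
CDKN1A, chr6:36678464-36678713, plus strand: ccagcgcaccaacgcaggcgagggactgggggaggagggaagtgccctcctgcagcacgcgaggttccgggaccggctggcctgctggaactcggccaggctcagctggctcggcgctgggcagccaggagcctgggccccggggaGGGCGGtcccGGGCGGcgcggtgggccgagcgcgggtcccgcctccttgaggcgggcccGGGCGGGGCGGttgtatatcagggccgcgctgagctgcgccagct
CDKN2D, chr19:10568980-10569229, minus strand: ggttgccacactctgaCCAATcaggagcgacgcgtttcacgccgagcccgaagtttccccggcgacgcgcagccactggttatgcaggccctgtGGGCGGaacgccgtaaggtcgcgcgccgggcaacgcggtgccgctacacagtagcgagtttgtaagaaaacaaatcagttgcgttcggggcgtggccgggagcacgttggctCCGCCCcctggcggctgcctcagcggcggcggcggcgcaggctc
CDKN2B, chr9:22009306-22009555, minus strand: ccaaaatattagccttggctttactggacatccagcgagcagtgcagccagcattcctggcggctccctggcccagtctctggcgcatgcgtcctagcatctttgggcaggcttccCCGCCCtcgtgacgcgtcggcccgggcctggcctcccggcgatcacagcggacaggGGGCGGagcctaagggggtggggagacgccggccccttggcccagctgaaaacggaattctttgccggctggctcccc
CDKN1B, chr12:12717118-12717367, plus strand: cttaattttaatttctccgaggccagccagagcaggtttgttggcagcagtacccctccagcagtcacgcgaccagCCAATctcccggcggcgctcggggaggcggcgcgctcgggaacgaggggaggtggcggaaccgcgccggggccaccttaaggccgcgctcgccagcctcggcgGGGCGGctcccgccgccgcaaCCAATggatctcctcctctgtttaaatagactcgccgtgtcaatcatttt
CDKN3, chr14:54396757-54397006, plus strand: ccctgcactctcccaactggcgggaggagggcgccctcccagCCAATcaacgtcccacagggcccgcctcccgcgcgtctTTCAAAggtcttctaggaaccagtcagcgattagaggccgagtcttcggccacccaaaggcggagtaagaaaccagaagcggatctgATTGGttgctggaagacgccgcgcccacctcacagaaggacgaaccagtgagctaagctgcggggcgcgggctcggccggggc

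The CDKN1A window held 4 GC boxes, of which the last pair overlaps by 1 base, and 76.4% of its bases were G or C. The median over all 35114 RefSeq windows of the same length was 58.0%. CDKN2D had 2 GC boxes and 1 CCAAT box, CDKN2B had 2 GC boxes, and CDKN1B had 1 GC box and 2 CCAAT boxes. CDKN3 had no GC box, 2 CCAAT boxes and, 170 bases before the start on the opposite strand, 1 CHR element. The set of RefSeq windows used here held 10 starts for 7 of the 8 genes, with 3 for CDKN2C and 2 for CDKN2A. It had no entry for CDKN1C, whose promoter was therefore not searched. The GC box was in 7 of these 10 windows and in 42.6% of all windows, the CCAAT box in 4 of 10 and 32.01%, and the CHR element in 1 of 10 and 13.3%. The E-box (CACGTG) stood before 2 of the starts of CDKN2C and in 6.35% of all windows. None of the 10 windows held the TATA box TATAAA, which 10.7% of all windows did, the E2F patterns TTTCCCGC or TTTGGCGC, the forkhead pattern GTAAACA, or the CRE TGACGTCA. A match of letters describes the window and shows no binding.

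The libraries held 32879710 to 45052044 counts. Knockdown replicate 2 stood nearest to the controls on the first principal component and replicate 1 next, and the fit was also made without this pair. The fit without the pair called the same number of inhibitor genes, 4, with log2 fold changes of -1.39 for CDKN1A, 2.30 for CDKN1C, 0.78 for CDKN2B and 1.67 for CDKN2D. Among other genes named below, the values without the pair were 4.42 for GPR19, 0.68 for SRSF3, 1.06 for DDX47 and 1.99 for CDK2. The cells carried cardiomyocyte RNA. The 12 markers of that cell type summed to 38450 to 52433 CPM (counts scaled by normalised library size) in control and 14941 to 24448 CPM in knockdown libraries. Of these markers 10 fell and none rose, where 39.6% of all genes tested fell and 40.1% rose. Summed levels of 4 smooth muscle markers were 1146 to 2388 CPM in control and 474 to 871 CPM in knockdown, and those of 8 stromal markers 1261 to 1381 and 951 to 1118 CPM. Of 5 endothelial markers KDR made up most of 29.3 to 49.9 CPM in control and 8.24 to 16.3 CPM in knockdown, and PECAM1, CDH5 and VWF stayed under 1 CPM. The 5 epicardial markers summed to 4.21 to 5.43 and 1.73 to 3.38 CPM. The sum of the 6 pluripotency markers rose from 0.204 to 1.24 up to 3.47 to 6.21 CPM through LIN28A, DPPA4 and ZFP42, with POU5F1 and NANOG near 0. Only 3 of the 6 were tested, and 3 stayed under 1 CPM in every library. The 6 endoderm markers stayed under 1 CPM, and of the 4 neural markers TUBB3 made up nearly all of 19.6 to 35.3 CPM in control and 49.3 to 71.6 CPM in knockdown. In bulk RNA, fewer cells of a type and less RNA per cell cannot be told apart, and the part of these shifts in the results below was not tested.

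The CDK inhibitor genes moved in both directions. Among the 7 that were tested, CDKN1C, CDKN2D and CDKN2B rose in the knockdown, CDKN1A fell, and CDKN1B, CDKN2C and CDKN3 did not pass (edgeR's quasi-likelihood test, Benjamini-Hochberg adjusted p below 0.05 over all 21033 genes tested). In the same fit 79.7% of all genes passed, 40.1% higher and 39.6% lower, so 4 of 7 is not above the general share. Among coding genes the share was 81.8%. In 3 of the 7 genes (CDKN1A, CDKN1C and CDKN2D) the groups did not overlap, against 67.5% of all genes (33.7% with the knockdown above and 33.8% with it below). The median log2 fold change was 0.084 over the 7 genes and 0.0056 over all genes. Normalisation takes rises and falls to balance, and upper-quartile scaling moved all genes by 0.20 on the log2 scale.

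**Figure D1:**
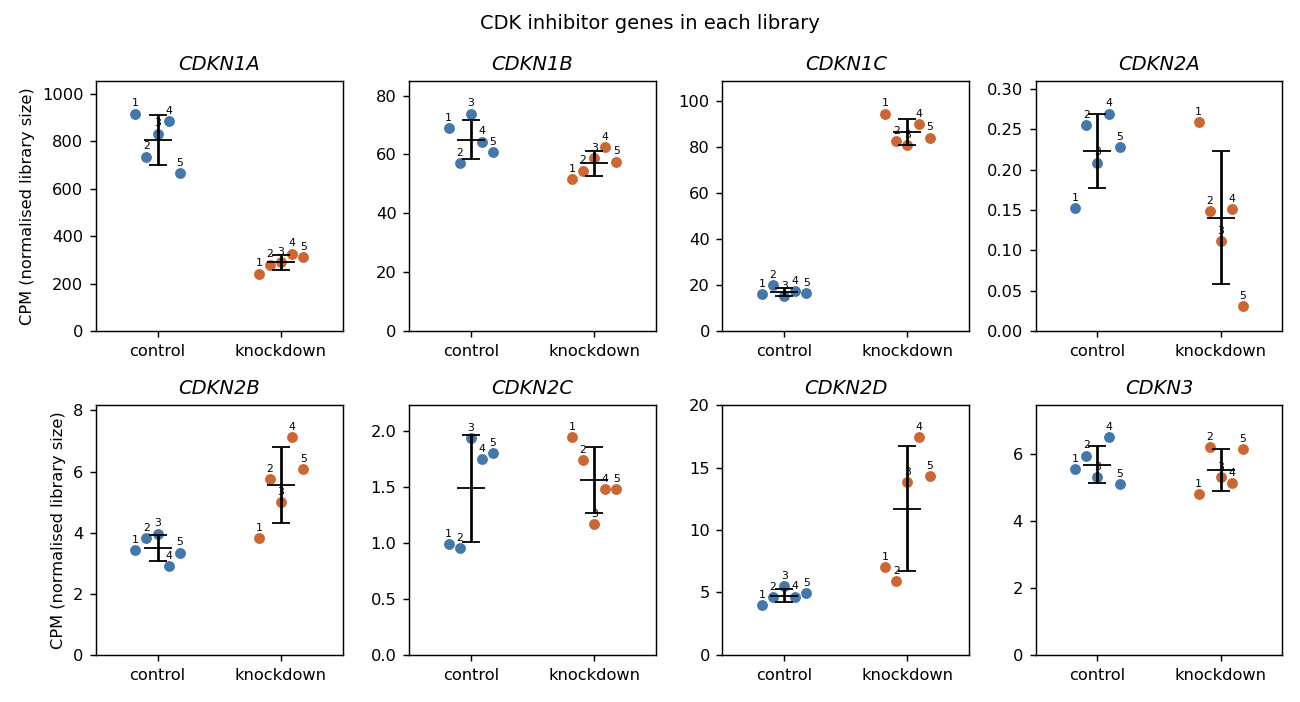
Level of each of the 8 genes in CPM on normalised library sizes, with each axis starting at 0, in 5 control (blue) and 5 knockdown (orange) libraries marked by replicate number. Bars are the mean and SD. CDKN1A is lower in all 5 knockdown libraries (242 to 326 CPM) than in any control (665 to 916 CPM), and CDKN1C is higher (81.0 to 94.6 against 15.4 to 20.0 CPM).

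CDKN1A encodes p21, an inhibitor that is induced after DNA damage and also gathers during differentiation. The gene (ENSG00000124762) lies on chromosome 6, 36676460 to 36687337, plus strand, on GRCh38. Control replicates 1 to 5 stood at 916, 735, 832, 886 and 665 CPM, and knockdown replicates 1 to 5 at 242, 281, 292, 326 and 310 CPM. Every knockdown library lay below every control, and replicate 1 was the lowest. The means were 807 ± 105 and 290 ± 32.03 CPM (SD, n = 5), a 2.78-fold fall (log2 fold change -1.47 ± 0.123 SE, edgeR adjusted p = 4.6e-07). Falls of at least 2.5-fold, a limit set after its value was seen, were found in 18.0% of all genes.

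CDKN1C encodes p57, an inhibitor expressed mainly from the maternal chromosome and known for holding back growth in the embryo. It lies on chromosome 11 (ENSG00000129757, 2883213 to 2885775, minus strand). Its levels were 16.2, 20.0, 15.4, 17.5 and 16.4 CPM in control replicates 1 to 5 and 94.6, 82.6, 81.0, 90.2 and 84.2 CPM in knockdown replicates 1 to 5. The groups were far apart and the knockdown libraries close together. The mean went from 17.1 ± 1.77 to 86.5 ± 5.70 CPM (SD, n = 5), a 5.06-fold rise (log2 fold change 2.34 ± 0.0923 SE, edgeR adjusted p = 7.1e-09). Rises of at least 5-fold, a limit likewise set after its value was seen, were found in 7.49% of all genes.

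CDKN1B encodes p27, the inhibitor that keeps resting cells in G1 and is controlled largely through breakdown of the protein. On chromosome 12 (ENSG00000111276, 12685498 to 12722369, plus strand), it stood at 68.9, 57.0, 73.8, 64.3 and 60.7 CPM in control replicates 1 to 5. Knockdown replicates 1 to 5 had 51.5, 54.5, 58.9, 62.4 and 57.6 CPM, and the groups overlapped. Its log2 fold change of -0.19 ± 0.0900 (SE) did not pass (edgeR adjusted p = 0.0697). The gene passed when control replicate 2 (-0.26, adjusted p = 0.0229) or control replicate 5 (-0.24, adjusted p = 0.0431) was left out, and its value was 0.011 under upper-quartile scaling.

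The balance inside the CIP/KIP family changed with these values. To compare genes, CPM was divided by the length of the canonical transcript in kb. On that scale the 3 genes summed to 418 ± 51.0 (SD, n = 5) in control libraries and to 210 ± 15.9 in the knockdown. CDKN1A made up 91.2% ± 0.803 of the control sum and 65.3% ± 2.75 of the knockdown sum, and CDKN1C 2.34% ± 0.439 and 23.4% ± 2.73. The ratio of CDKN1A to CDKN1C went from 30.8 to 47.4 in the controls to 2.15 to 3.09 in the knockdown, lowest in knockdown replicate 1. CDKN1B held 6.49% ± 0.623 and 11.3% ± 0.286 of the sum. CDKN1A thus stayed the most abundant of the 3 RNAs in each of the 10 libraries.

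**Figure D2:**
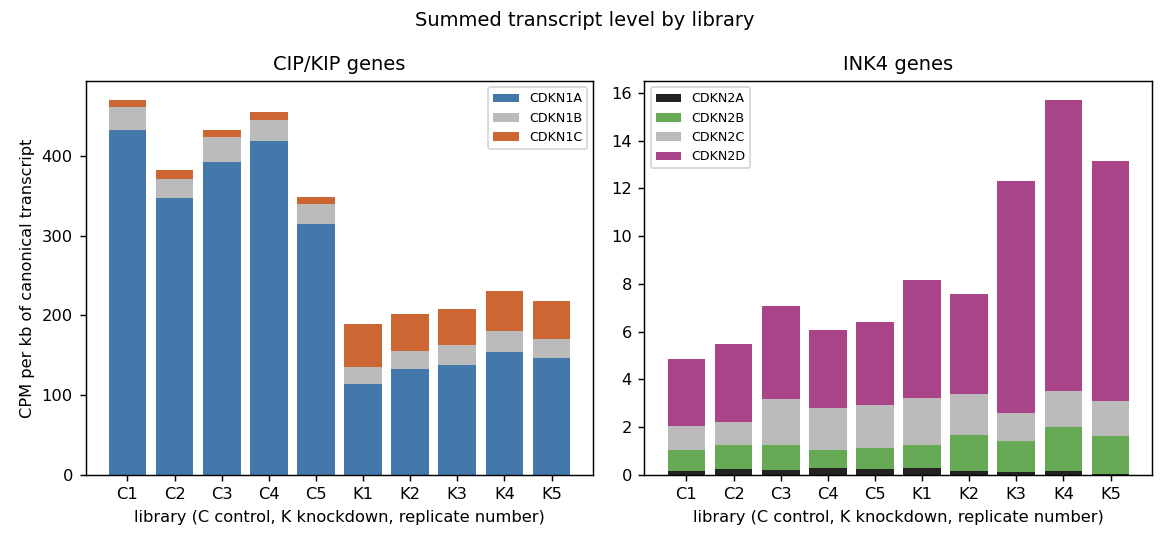
Stacked levels in CPM per kb of canonical transcript for the 3 CIP/KIP genes (left) and the 4 INK4 genes (right) in each library, C for control and K for knockdown with the replicate number, on axes of different range. The CIP/KIP bars are shorter in the knockdown with a larger CDKN1C part. The INK4 bars are taller in every knockdown library (7.56 to 15.7) than in any control (4.85 to 7.07), most so in knockdown replicates 3 to 5 through CDKN2D.

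Among INK4 genes, CDKN2D, which encodes p19-INK4d and is known from development and from neurons that have stopped dividing, rose most. It lies on chromosome 19 (ENSG00000129355, 10566460 to 10569059, minus strand). Control replicates 1 to 5 had 4.00, 4.65, 5.52, 4.66 and 4.95 CPM. Knockdown replicates 1 and 2 had 7.06 and 5.93 CPM, and replicates 3, 4 and 5 had 13.8, 17.4 and 14.3 CPM. All knockdown libraries lay above all controls, and replicates 1 and 2 lay nearest to them. The change was 2.46-fold (log2 fold change 1.30 ± 0.269 SE, edgeR adjusted p = 7.1e-04). With knockdown replicates 1 and 2 left out together the log2 fold change was 1.67. In these libraries the shift between long and short genes, the median log2 difference from the controls in coding genes over 100 kb minus that in genes up to 10 kb, was also smallest. It was -1.70 and -1.28 in knockdown replicates 1 and 2 and -2.16 to -2.42 in replicates 3 to 5. The share of counts from the mitochondrial genome was 11.5% and 10.9% in knockdown replicates 1 and 2, 15.96% to 17.5% in replicates 3 to 5 and 10.03% to 12.2% in the controls. The part of either measure in the change of CDKN2D was not tested. With mitochondrial genes removed before normalisation its log2 fold change was 1.30. That removal moved all genes by a median of only -8.3e-04 on the log2 scale, so it could not test the part of the mitochondrial share.

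CDKN2B encodes p15, the INK4 protein that TGF-beta signalling induces. On chromosome 9 (ENSG00000147883, 22002903 to 22009305, minus strand), its control replicates 1 to 5 stood at 3.44, 3.81, 3.97, 2.91 and 3.35 CPM. Knockdown replicates 1 to 5 had 3.82, 5.76, 4.99, 7.12 and 6.08 CPM. Replicate 1 lay among the controls and the other 4 above them all. CDKN2B rose 1.59-fold (log2 fold change 0.67 ± 0.167 SE, edgeR adjusted p = 0.00273), and no single library left out ended the call. Per kb of canonical transcript the 4 INK4 genes together went from 5.97 ± 0.849 to 11.4 ± 3.45 (CPM per kb, SD, n = 5), against 210 ± 15.9 for the CIP/KIP genes in the same knockdown libraries. CDKN2D made up 56.1% ± 2.48 of that sum in control and 69.8% ± 11.1 in the knockdown, where the share ranged from 55.04% to 79.0% and overlapped the controls.

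CDKN2C, which encodes p18-INK4c, did not pass. On chromosome 1 (ENSG00000123080, 50960745 to 50974634, plus strand), it had 0.993, 0.953, 1.94, 1.75 and 1.80 CPM in control replicates 1 to 5. Knockdown replicates 1 to 5 had 1.94, 1.74, 1.17, 1.48 and 1.48 CPM, within the range of the controls but for replicate 1, which was just above the highest control. Control replicates 1 and 2 lay below all other libraries. The log2 fold change was 0.084 ± 0.237 (SE, edgeR adjusted p = 0.752), and with 281 control and 310 knockdown counts in all its ratio had a 95% counting interval from 0.928 to 1.29.

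CDKN2A, the source of p16-INK4a and of ARF, markers of ageing and senescent cells, was close to the limit of detection. It lies on chromosome 9 (ENSG00000147889, 21967752 to 21995301, minus strand). Control replicates 1 to 5 had 6, 11, 7, 10 and 9 counts and knockdown replicates 1 to 5 had 12, 7, 4, 5 and 1. Both groups overlapped and the gene fell short of the filter on low counts. The ratio of summed counts, 43 in control and 29 in knockdown, was 0.669 after scaling by normalised library sizes, with a 95% counting interval from 0.403 to 1.10 (exact binomial). Fitted without the filter, its log2 fold change was -0.64 ± 0.458 (SE, edgeR adjusted p = 0.272). Intervals of this kind cover counting error only. Counts of the gene do not separate p16 from ARF.

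CDKN3 lies on chromosome 14 (ENSG00000100526, 54396849 to 54420218, plus strand). Its control replicates 1 to 5 had 5.55, 5.95, 5.31, 6.49 and 5.10 CPM and its knockdown replicates 1 to 5 had 4.79, 6.21, 5.29, 5.12 and 6.14 CPM. The libraries were interleaved (log2 fold change -0.044 ± 0.118 SE, edgeR adjusted p = 0.742). Other genes of dividing cells moved, as given with the pathway lists.

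Per kb of canonical transcript the order of mean levels in control libraries was CDKN1A (381 ± 49.6), CDKN1B (26.9 ± 2.75), CDKN1C (9.64 ± 0.999), CDKN3 (6.75 ± 0.656), CDKN2D (3.34 ± 0.387), CDKN2C (1.49 ± 0.477), CDKN2B (0.907 ± 0.108) and CDKN2A (0.228 ± 0.0468) (CPM per kb, SD, n = 5). Libraries of CDKN2C and CDKN2B overlapped in that order, and the other neighbours did not. In knockdown libraries CDKN1C (48.8 ± 3.21) stood above CDKN1B (23.6 ± 1.72), and CDKN2D (8.22 ± 3.49) overlapped CDKN3 (6.55 ± 0.753). CDKN2C (1.57 ± 0.295) and CDKN2B (1.44 ± 0.320) again overlapped. With the length of all annotated exons in place of the canonical transcript, CDKN1B (7.02 ± 0.717) and CDKN1C (6.89 ± 0.714) were within their spread in control libraries, and CDKN2B stood above CDKN2C. On that scale CDKN2D (3.16 ± 0.366) and CDKN3 (3.11 ± 0.302) overlapped in control libraries. In the knockdown CDKN2D (7.79 ± 3.31) had a higher mean than CDKN1B (6.16 ± 0.449), with overlapping libraries, and CDKN1B made up 2.49% of the control CIP/KIP sum. For CDKN1B 9255 bases of exon are annotated, of which the canonical transcript holds 2411.

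Span, the distance from the first to the last base of a gene, moved with the fold change across the transcriptome, and the inhibitor genes were set beside coding genes of their own span class. CDKN1C (2.56 kb) and CDKN2D (2.60 kb) fall among 562 coding genes of up to 3 kb, of which 74.7% rose and 6.94% fell (median log2 fold change 0.99). CDKN2B (6.40 kb) falls among 2234 genes of 3 to 10 kb with a median of 0.71, and its own value was 0.67. CDKN1A (10.9 kb), CDKN2C (13.9 kb) and CDKN3 (23.4 kb) fall among 4068 genes of 10 to 30 kb, of which 48.9% rose and 29.1% fell (median 0.27). CDKN1A was below the 10th percentile of that class (-1.16). CDKN1C lay between the median and the 90th percentile of its class (2.85). CDKN1B (36.9 kb) falls among 4783 genes of 30 to 100 kb with a median of -0.48. The part of span in the single values was not tested.

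**Figure D3:**
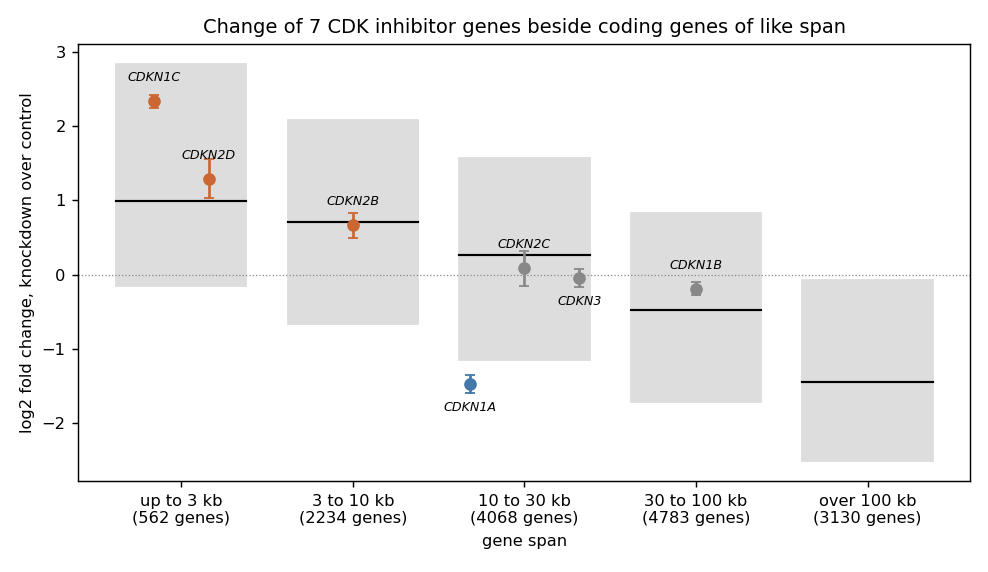
Log2 fold change (knockdown over control) with SE of the 7 tested genes, placed by span class and coloured by call (orange higher, blue lower, grey not passed). Grey boxes run from the 10th to the 90th percentile of all tested coding genes of the class and the black line is their median. CDKN1A (-1.47) lies below the box of its class, and the other 6 lie inside theirs.

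At the CDKN1A locus an antisense RNA moved the other way. DINOL (ENSG00000285244, chromosome 6, 36677609 to 36678559, minus strand) is a long non-coding RNA known to be induced by DNA damage. Its 5′ end lies 155 bases before the RefSeq start of CDKN1A, so 96 of the 250 promoter bases printed above lie inside it. Control replicates 1 to 5 had 0.535, 0.372, 0.626, 0.539 and 0.482 CPM and knockdown replicates 1 to 5 had 2.40, 1.91, 2.98, 3.00 and 2.62 CPM. All knockdown libraries were above all controls, a 5.04-fold rise (log2 fold change 2.33 ± 0.194 SE, edgeR adjusted p = 4.4e-07, 97 counts in control and 490 in knockdown). DINOL shares 146 of its 951 exon bases with CDKN1A exons annotated upstream. The kit keeps strand, but the strand setting of the counting is not given in the sources used here, so reads over shared bases may not be assigned with certainty. PANDAR, a further non-coding RNA 1.33 kb from the CDKN1A span, had 5 control and 35 knockdown counts and was not tested.

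Other tested genes within 100 kb of CDKN1A moved both ways. The splicing factor gene SRSF3 rose (log2 fold change 0.50), and CPNE5 (-1.64), RAB44 (-1.42) and ENSG00000285888 (-1.79) fell. Around CDKN1B, GPR19, a receptor gene on the opposite strand that overlaps its annotated span, rose by 4.04, from 52 counts in all control to 813 in all knockdown libraries. CREBL2 (1.00), DDX47 (0.87) and ENSG00000275963 (1.75, with 24 control and 81 knockdown counts) rose and APOLD1 fell (-0.65). Around CDKN1C, whose rise was the largest of the family, no tested neighbour within 100 kb rose. The potassium channel gene KCNQ1 (-1.59) and the histone chaperone gene NAP1L4 (-1.95) fell, and SLC22A18 (0.35), PHLDA2 (0.043) and SLC22A18AS (-0.16) did not pass. SLC22A18 passed under upper-quartile scaling (0.54) and with the replicate number as a block (0.33).

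Near CDKN2A and CDKN2B, MTAP fell (log2 fold change -1.95), and so did ERVFRD-3 (-4.56), with 84 control and 3 knockdown counts. CDKN2B-AS1, the antisense RNA known as ANRIL that overlaps both genes, had 16 control and 33 knockdown counts and was not tested. FAF1, which starts 0.478 kb from CDKN2C on the opposite strand, fell (-2.00). Around CDKN2D, KEAP1 rose (0.42), SLC44A2 (-0.69) and ATG4D (-0.72) fell, and KRI1 (-0.12) and PDE4A (0.024) did not pass. KRI1 passed with knockdown replicates 1 and 2 left out together (-0.18, edgeR adjusted p = 0.0358). All 3 tested neighbours of CDKN3 rose, CNIH1 (0.47), CGRRF1 (0.96) and GMFB (0.31).

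**Figure D4:**
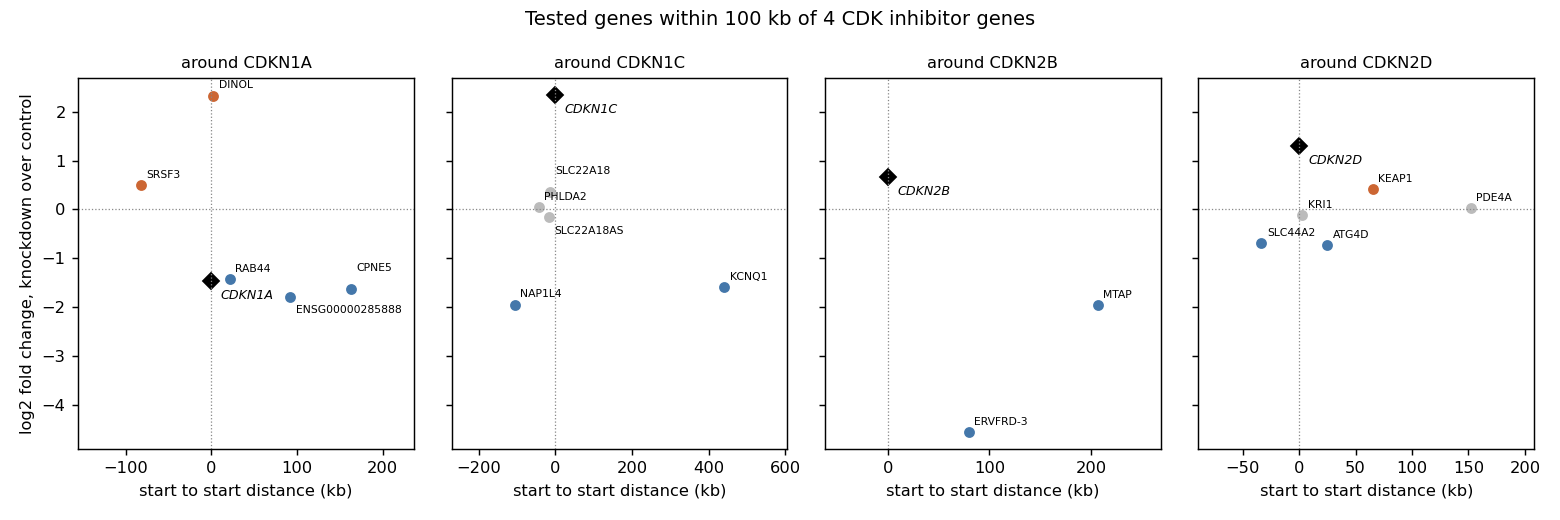
Log2 fold change (knockdown over control) of tested genes within 100 kb of CDKN1A, CDKN1C, CDKN2B and CDKN2D against the distance between annotated starts in kb, positive in the direction of transcription. Starts are those of GENCODE. For CDKN1A that start lies 2254 bases before the RefSeq start used in the text, so DINOL is drawn at 2.10 kb. Black diamonds are the inhibitor genes, and orange, blue and grey points are higher, lower and not passed. DINOL (2.33) lies opposite to CDKN1A (-1.47), and CDKN1C (2.34) lies above each of its 5 tested neighbours.

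CDKN1C lies in an imprinted domain on chromosome 11 with 11 listed genes, of which 10 were tested. Of these 2 rose and 3 fell (median log2 fold change 0.12), beside 40.1% of all genes higher and 39.6% lower. IGF2, the paternally expressed growth factor of the adjoining domain, rose from 535 ± 25.9 to 1168 ± 249 CPM (SD, n = 5), and TSSC4 rose 2.11-fold. KCNQ1, NAP1L4 and CD81 (2.63-fold) fell. KCNQ1OT1, the antisense RNA known to silence CDKN1C on the paternal chromosome, had a log2 fold change of 0.20 ± 0.0981 (SE, edgeR adjusted p = 0.0833). It passed under DESeq2's size factors (0.22), upper-quartile scaling (0.39), DESeq2 (0.22), a mean of at least 1 CPM (0.25) and without knockdown replicate 4 (0.25).

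The kinases that the inhibitors act on split between their partners. Counts in this and the other lists stand beside 40.1% of all genes higher and 39.6% lower, 79.7% in all. Span differs within the lists, and 85.1% of coding genes over 100 kb fell while 74.7% of those up to 3 kb rose. CDK6, which fell, spans 232 kb and CDK2, which rose, 6.01 kb, but CCND3, which also rose, spans 115 kb. The part of span in the lists was not tested. Of the D-type cyclins and their kinases, the targets of INK4 proteins, CCND3 (2.76-fold) and CDK4 (1.63-fold) rose and CCND2 (4.34-fold), CDK6 (3.99-fold) and CCND1 (1.75-fold) fell. CDK6 went from 250 ± 6.83 to 62.8 ± 20.5 CPM and CDK4 from 69.2 ± 2.99 to 113 ± 12.5 CPM (SD, n = 5). Of 12 tested genes of cyclins E, A and B, CDK2, CDK1 and their regulators, which CIP/KIP proteins and CDKN3 act on, 8 rose and 1 fell, with a median log2 fold change of 0.58. The 9 of 12 called are near the 79.7% of all genes. CDK2 rose 3.50-fold, from 27.4 ± 2.75 to 96.2 ± 20.4 CPM, CCNB1 2.54-fold and CCNB2 1.91-fold. CDC25C fell 1.55-fold, and CCNE1 did not pass (log2 fold change 0.024). Of the CDK-activating kinase, MNAT1 fell 4.05-fold, CDK7 rose 1.22-fold (a call lost without control replicate 3 or without a filter on low counts) and CCNH did not pass (log2 fold change 0.034). Of 9 tested genes listed as further regulators or partners of CDKs and their inhibitors 6 rose, including CKS2 (5.63-fold), CDKN2AIP (5.65-fold) and CDK2AP1 (2.07-fold). CABLES1 (1.93-fold) and CABLES2 (1.40-fold) fell.

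Downstream of the kinases, 6 of 13 pocket protein and E2F genes fell and 3 rose (median log2 fold change -0.14). RB1, the retinoblastoma protein that CDK4 and CDK6 phosphorylate, fell 3.22-fold, and the E2F partners TFDP1 and TFDP2 fell 4.26-fold and 1.99-fold. E2F1 (2.07-fold), E2F5 (1.64-fold) and E2F7 (1.502-fold) rose. Of 7 genes of the DREAM and MuvB complexes, which silence cell cycle genes when p21 is high or switch on mitotic genes, 6 fell and 1 rose. LIN52 (3.40-fold), FOXM1 (2.21-fold) and MYBL2 (1.93-fold) fell and RBBP4 rose 1.97-fold. Of 20 proliferation markers 14 rose and 3 fell, with a median of 0.54, and 79.7% of all genes were called. UBE2C (3.00-fold), HMMR (2.07-fold) and BUB1 (1.498-fold) rose, and BUB1B (2.67-fold), AURKB (2.16-fold) and NUSAP1 (1.38-fold) fell. MKI67, a common marker of dividing cells named after its value was seen, went from 92.3 ± 11.1 to 142 ± 28.7 CPM.

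**Figure D5:**
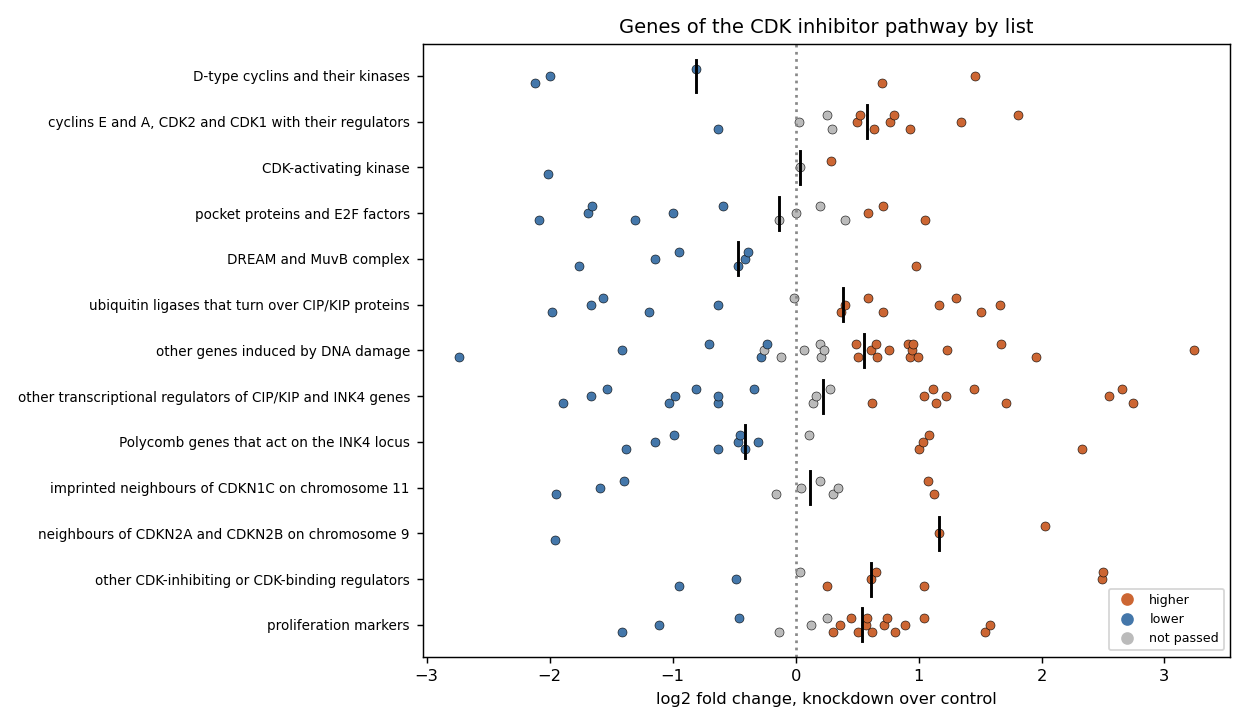
Log2 fold change (knockdown over control) of tested genes in 13 lists around the CDK inhibitors, 1 point a gene, orange higher, blue lower and grey not passed, with a black bar at the median of each list and a dotted line at the median of all genes (0.0056). Medians run from -0.81 for D-type cyclins and their kinases to 1.17 for the neighbours of CDKN2A and CDKN2B, a list with 3 tested genes.

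Genes that are induced by DNA damage as CDKN1A is, and genes that act on the inhibitors, were also mixed. Of 26 listed genes of the first kind 15 rose and 5 fell (median log2 fold change 0.56), and the 20 called are near the 79.7% of all genes. By smallest p, EDA2R (1.92-fold), CCNG1 (1.90-fold) and RRM2B (1.57-fold) rose, and AEN (6.66-fold), XPC (2.66-fold) and SESN2 (1.63-fold) fell with CDKN1A. Larger rises, named after their values were seen, were those of PMAIP1 (9.44-fold), BBC3 (3.88-fold) and TRIAP1 (3.18-fold). PMAIP1 had 14.2 and 11.4 CPM in knockdown replicates 1 and 2 and 57.7, 72.3 and 42.2 CPM in replicates 3 to 5. BBC3 and TRIAP1 were also lower in knockdown replicates 1 and 2 than in replicates 3 to 5.

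Of 22 other transcription factors known to act on these genes 10 rose and 9 fell (median 0.22), near the 40.1% and 39.6% of all genes. ZBTB17, the MIZ1 factor of the CDKN1A and CDKN2B promoters, rose 2.73-fold, SP1, which binds GC boxes, 2.34-fold, and FOXO4 6.70-fold. FOXO3 (3.70-fold), SMAD2 (3.18-fold) and MEIS1 (2.90-fold) fell. Of 13 Polycomb genes and their antagonists, which act on the INK4 locus, 4 rose and 8 fell (median -0.41), against the same shares of all genes, with CBX2 (5.02-fold), EED (2.05-fold) and KDM6B (2.01-fold) higher and KDM2B (2.20-fold), EZH1 (2.60-fold) and JARID2 (1.98-fold) lower. Of 14 ubiquitin ligase genes that turn over CIP/KIP proteins 8 rose and 5 fell (median 0.39), again beside 40.1% and 39.6% of all genes. CUL4B (2.25-fold), CDC20 (2.84-fold) and RCHY1 (1.64-fold) rose, and CUL4A (2.28-fold), RNF123 (3.96-fold) and CUL1 (2.96-fold) fell. On chromosome 9, more than 100 kb from CDKN2A and CDKN2B, KLHL9 (2.25-fold) and DMRTA1 (4.07-fold) rose, whereas MTAP, within that distance, fell.

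The genes most like each inhibitor were sought by Pearson correlation of log2 CPM over the 10 libraries among 14514 genes, a description in which points share their group. CDKN1A was most like NBPF14 (r = 0.994), CYB5R3 (0.992) and NBPF10 (0.991). The NBPF genes are near-identical copies whose counts are uncertain. CDKN1C was most like SHD (0.998), TFG (0.998) and MTX3 (0.998), and CDKN2D was most like CHST14 (0.999), KMT5C (0.995) and PRMT6 (0.994). CDKN2B was most like C11orf96 (0.955), ZBTB21 (0.951) and GALNTL6 (0.938), and CDKN1B most like YY1 (0.952), PSMA2 (0.947) and CCL2 (0.946). CDKN2C (ZNF883 0.897, IQCE 0.870, CEP162 0.865) and CDKN3 (WFS1 0.790, PRAG1 0.759, JADE1 0.754) had weaker likenesses, with genes that did not pass the test either.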

How the data were processed

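The authors deposited unnormalised counts per gene for total RNA of 10 libraries, 5 in each group by their titles. Trim Galore 0.65, STAR 2.7.0 and HTSeq are named in the submitters' processing notes, with build GRCh38, and GENCODE release 38 in the series' design text; the strand setting of the counting is not given in the sources used here. Columns of control libraries spell the abbreviation unlike the labels and were matched by title, with 0 columns left unmapped. Names, spans and exons came from GENCODE release 44, which matched 61481 of 78932 identifiers. Counts were normalised with TMM and tested with edgeR 4.0.16 (filterByExpr, robust quasi-likelihood F test, threshold 0.05) in R 4.3.3. The test was checked on simulated data in which few genes changed. That check does not cover a shift across most genes, as found here. SE was derived from the fold change and its F value. Members and gene lists were chosen with earlier results of these data known. Named are all 8 genes, up to 3 rising and 3 falling genes a list by smallest p and direct partners, tested genes within 100 kb, and the 3 most alike genes with a mean of at least 1 CPM (log2 CPM, prior count 2). Of the lists, cell type markers are given as sums. Alternatives are other scalings, DESeq2 1.42.0, limma-voom (limma 3.58.1), other filters, dispersions without robust estimation, removal of mitochondrial genes, the replicate number as a block and libraries left out. Libraries of a group all differed by more than counting noise (chi-square over its degrees of freedom at least 4.13). Figures used matplotlib 3.10.9. Protein sequences were not analysed here, and 1 listed regulator with its list and 2 neighbouring genes are not reported here.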

Additional observations from a re-analysis of the deposited data

Results flagged for a closer look

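None of the 8 CDK inhibitor genes had a library far from the others of its group by Dixon's ratio. Among 130 named genes, each in both groups of 5, 10 of 260 checks found one, where chance flags about 5% of groups. Knockdown replicate 2 stood above the other knockdown libraries for CDK7 (15.2 CPM, others 11.9 to 12.7), FOXM1 (17.7, others 10.7 to 12.01), AEN (17.1, others 9.69 to 11.3) and AURKB (4.78, others 2.76 to 3.22). Knockdown replicate 5 was low for EED (29.4, others 31.4 to 32.2) and knockdown replicate 1 for KCNQ1 (7.90, others 10.2 to 11.1). Control replicate 3 was low for CDK7 (9.61, others 10.6 to 11.02) and ZBTB17 (17.3, others 18.96 to 19.6), control replicate 5 was low for RCHY1 (30, others 36.01 to 37.9), and control replicate 1 was high for CYB5R3 (383, others 324 to 338).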

How the results depend on the processing

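The calls of CDKN1A (log2 fold change -1.56 to -1.27), CDKN1C (2.28 to 2.54), CDKN2B (0.57 to 0.86) and CDKN2D (1.12 to 1.67) kept their direction and passed in all 20 alternatives. The number of inhibitor genes called was 4 to 5, the fifth being CDKN1B, and that of all genes 13706 to 20167. With the replicate number as a block 16425 genes and the same number of inhibitor genes, 4, passed. After the mean of each group was subtracted, same-numbered libraries of the groups were correlated between -0.17 and 0.22. Libraries of unlike number were not compared, so these values cannot decide whether the numbers are a pairing. Upper-quartile scaling moved all genes by 0.20, and the share of higher genes among those called from 50.3% to 56.8%. Signs of genes near 0 changed with it, by the shift itself, for CDKN1B (0.011), CDKN3 (0.15), WFS1 (0.18), JADE1 (0.15), KRI1 (0.078), PRAG1 (0.0058), PSMA2 (0.033) and SLC22A18AS (0.036). With a mean of at least 1 CPM they changed for CDKN3 (0.0086), WFS1 (0.035) and JADE1 (0.011), with DESeq2's size factors for WFS1 (0.0079), with DESeq2 for WFS1 (0.0077), with limma-voom for PHLDA2 (-0.072), with the replicate block for PHLDA2 (-0.0092) and without a filter for CCNE1 (-0.0098) and PDE4A (-0.013). With knockdown replicates 1 and 2 left out together they changed for CDKN2C (-0.11), CCNE1 (-0.027), CEP162 (-0.0052), IQCE (-0.040) and ZNF883 (-0.052). With single libraries left out, values crossed 0 for CCNE1 (-0.080 to 0.080), CDKN2C (-0.067 to 0.18), CDKN3 (-0.10 to 0.011), CEP162 (-0.076 to 0.095), IQCE (-0.0057 to 0.092), JADE1 (-0.11 to 2.3e-04), PDE4A (-0.076 to 0.13), PHLDA2 (-0.19 to 0.25), SLC22A18AS (-0.32 to 0.025) and WFS1 (-0.080 to 0.023). None of these genes passed the test under the main settings. Upper-quartile scaling left 4 of 7 DREAM genes called, against 7, and the CDK-activating kinase genes called went from 2 to 1 without a filter and to 3 under upper-quartile scaling, and ranged from 1 to 2 with single libraries left out. The cause was not tested.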
